A study of Mus musculus with 4 samples.

Results

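The thrombospondins and other matricellular proteins were followed through 10 genes, Thbs1, Thbs2, Thbs3, Thbs4, Postn, Tnc, Sparc, Cilp, Ccn2 and Ccn5, out of 30406 genes whose identifiers were in all 4 libraries. They were taken by gene identifier from the ligated library's feature list, because mock 1 lists Ccn2 and Ccn5 under the older symbols Ctgf and Wisp2. The libraries are single-cell RNA sequencing (10x Genomics) of submandibular salivary gland from female C57BL6/J mice. In the ligated group (1 library) a metal clip had closed the main duct of each gland, submandibular and sublingual, for 14 days, and in the mock group (3 libraries, mock 1, 2 and 3) the ducts were found and left unclipped. All 4 libraries were enriched for stroma by removing cells marked with antibodies to EpCAM, found on epithelium, and Ter119, found on red blood cells, and then dead cells. The labels name the submandibular gland as the tissue, while the protocol also harvests sublingual glands, and neither says whether each library came from 1 mouse or from several. The p-values below therefore measure only the spread between libraries.

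Matricellular proteins are secreted into the extracellular matrix, where they modulate how cells adhere, migrate and respond to growth factors rather than giving the matrix its strength. Most are low in resting adult tissue and appear in development, wound repair and fibrosis. Thrombospondin-1 and -2 form trimers that bind CD36 and CD47 and restrain angiogenesis, and thrombospondin-1 can activate latent TGF-beta. Thrombospondin-3 and -4 form pentamers without the anti-angiogenic repeats. Periostin (Postn) and tenascin-C (Tnc) bind integrins, SPARC binds collagen, CILP (cartilage intermediate layer protein) is known from cartilage and scarred heart, and CCN2 and CCN5 are members of the CCN family of signalling modulators, CCN2 being a classical target of TGF-beta and YAP.

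In the ligated library 13790 barcodes carried 80187555 UMIs (unique molecular identifiers, which count captured transcripts), and the mocks had 4798 to 13194 barcodes with 29897488 to 56932041 UMIs. Any pair of libraries had 11 to 61 barcodes in common, up to 0.634% of the smaller one. Per the file headers, counts came from Cell Ranger 6.0.1 in the ligated library and in mock 1, but from 7.0.0 in the other mocks. Values are therefore also given over mock 1 alone, a comparison of single libraries with no test. Mock 1 matches the ligated library in version but not in gene list, since it lists 31053 features against 32285. Mock 2 and mock 3 list 32287. Mock 2 and mock 3 stood close together: their gene totals gave a chi-square per degree of freedom of 12.7, while either of them gave 163 or 188 with mock 1, and all of these exceed counting noise. Cells were clustered without the 10 genes, so that no class was built on them, and clusters were named from marker genes. There were 1110 fibroblasts in the ligated library (202, 370 and 506 in mock 1, 2 and 3). Mural cells (pericytes and smooth muscle) numbered 535 against 259, 290 and 378, and endothelial cells 4071 against 2559, 4821 and 6384.

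The promoters of the 3 genes with the largest fold differences in fibroblasts among the 7 matched to RefSeq promoters are shown because their motifs can be read beside those differences. Each runs from 250 bases before to 50 bases after the annotated start, on GRCm38.p6, and capitals mark motif matches.
Thbs4, chr13:92794769-92795068, minus strand: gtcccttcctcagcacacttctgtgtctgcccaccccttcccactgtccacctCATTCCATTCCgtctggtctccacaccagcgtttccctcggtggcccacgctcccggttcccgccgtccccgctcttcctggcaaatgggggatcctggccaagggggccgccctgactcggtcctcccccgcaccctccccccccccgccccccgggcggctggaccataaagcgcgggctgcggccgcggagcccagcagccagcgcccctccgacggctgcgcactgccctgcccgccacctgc
Cilp, chr9:65264930-65265229, plus strand: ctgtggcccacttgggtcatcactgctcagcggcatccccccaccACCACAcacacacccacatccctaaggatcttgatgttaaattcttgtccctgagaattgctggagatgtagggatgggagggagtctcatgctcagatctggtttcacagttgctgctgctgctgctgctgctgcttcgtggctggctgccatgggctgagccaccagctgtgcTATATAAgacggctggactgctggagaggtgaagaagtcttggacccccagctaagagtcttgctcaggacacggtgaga
Postn, chr3:54360857-54361156, plus strand: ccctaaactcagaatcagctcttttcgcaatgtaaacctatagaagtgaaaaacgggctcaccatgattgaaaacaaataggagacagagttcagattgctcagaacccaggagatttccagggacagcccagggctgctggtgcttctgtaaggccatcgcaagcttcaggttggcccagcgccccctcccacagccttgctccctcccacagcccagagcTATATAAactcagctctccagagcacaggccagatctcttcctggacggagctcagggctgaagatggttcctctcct
Both strands were searched for GGAATG (bound by TEAD factors, the partners of YAP), TGANTCA (AP-1) and TGTGGT (RUNX), and, chosen after the sequences were seen, for TATATAA, a form of the TATA box. Thbs4 was the only one of the 7 with GGAATG. It held 2 matches, whose first bases lay at -197 and -192 with the start base as 0, both on the opposite strand and sharing 1 base. At least 1 match stood in 14.7% of 32851 mouse promoters of this length and 2 or more in 1.36%. TATATAA lay at -30 in Cilp, -28 in Postn and -29 in Tnc, and in 3.24% of promoters. Postn and Tnc each had a further listed promoter without it, at chr3:54359017-54359316 and chr4:64046966-64047265, not printed here. TGTGGT lay at -205 in Cilp and at 35 past the start in Sparc, on the opposite strand, and in 16.8% of promoters. No member held TGANTCA, found in 7.81%. These matches describe letters and not bound sites.

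In gene models of GENCODE on GRCm38 (mm10), 4 of the 10 genes overlap a gene on the other strand. Thbs1 on chromosome 2 overlaps the non-coding Gm29233 by 597 bases, Ccn2 on chromosome 10 overlaps Gm15270 by 1667, Tnc on chromosome 4 overlaps 8030451A03Rik by 67162, and Thbs3 on chromosome 3 overlaps Mtx1, a gene of the mitochondrial outer membrane, along its whole 11658 bases. The sources used here do not state whether counting used strand, so reads of these pairs may not be told apart and these 4 genes carry that uncertainty. Mtx1 itself had 24.65 UMIs per 1000000 UMIs (UPM) in ligated fibroblasts against 19.0, 33.1 and 29.7 in mock 1, 2 and 3. In ligated endothelial cells Mtx1 stood at 34.6 UPM and Thbs3 at 0.634, and in ligated macrophages at 42.7 and 0.781. Few Mtx1 reads can thus have been counted as Thbs3 in these cells, and the other pairs were not checked.

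**Figure D1:**
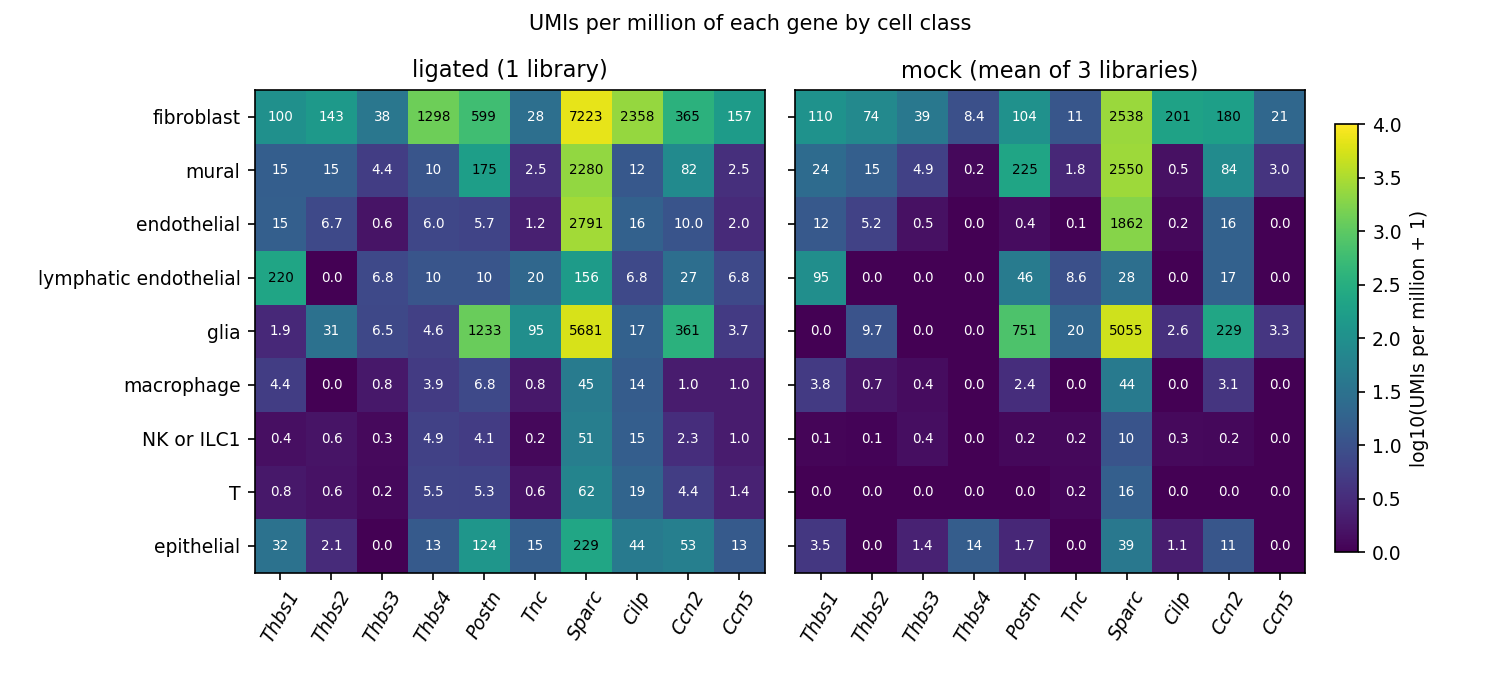
Level of each gene in UMIs per 1000000 of the class's UMIs (UPM), by cell class (rows), in the ligated library and as the mean of the 3 mock libraries. Colour is log10 of UPM plus 1, and the printed number is the level. Thbs4, Cilp and Ccn5 stood highest in fibroblasts of the ligated library, and Postn and Sparc were also high in glia.

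In mock glands the 10 genes divided by cell class. Fibroblasts had the highest mock mean for Thbs1, Thbs2, Thbs3, Cilp and Ccn5, while glia, the Schwann cells of the nerves, had it for Sparc, Postn, Ccn2 and Tnc. Thbs4 was low in every mock class, with means of 14.2 UPM in epithelial cells and 8.39 in fibroblasts. The epithelial mean rests on 15, 4 and 0 UMIs in mock 1, 2 and 3, from 0.441, 0.151 and 0% of cells. Postn was read at 751 ± 260 UPM (SD, n = 3) in mock glia, 225 ± 25.3 in mural cells and 104 ± 39.9 in fibroblasts. Glia and mural cells, and mural cells and fibroblasts, did not overlap for Postn in the mock libraries. For Sparc, glia stood at 5055 ± 1286, and mural cells (2550 ± 384), fibroblasts (2538 ± 1019) and endothelial cells (1862 ± 887) overlapped. For Ccn2, glia (229 ± 174) and fibroblasts (180 ± 66.9) overlapped, as did fibroblasts and mural cells at 83.8 ± 63.1. The glial values rest on 22, 38 and 43 cells.

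In the ligated library the order differed. Fibroblasts were the highest class for Sparc at 7223 UPM, ahead of glia at 5681, and for Ccn2 at 365, with glia at 361, whose 95% counting interval of 326 to 399 includes the fibroblast value. Glia remained highest for Postn (1233) and Tnc (95.4). Lymphatic endothelial cells were highest for Thbs1, at 220 with an interval of 170 to 280, from 65 UMIs in 28 cells. Their mock values of 17.5, 115 and 154 rest on 1, 7 and 6 UMIs. Intervals here are exact Poisson intervals and cover counting error only.

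Fibroblasts held 8 of the 10 genes above the whole mock range after ligation and none below it, while 29.5% of the 11875 genes tested in fibroblasts lay above and 28.6% below. The 2 within the range were Thbs1 and Thbs3. The median log2 fold change of the 10 was 1.56, and 1.51 against mock 1 alone, beside -0.03 and 0.00 over all genes tested. Values are CPM, the same quantity as UPM but scaled between libraries with TMM, a normalization that trims the most different genes. No gene passed in fibroblasts by edgeR's quasi-likelihood test at an adjusted p of 0.05 (0% of those tested), with 1 ligated library and 2 residual degrees of freedom. At an unadjusted p of 0.05, 655 genes passed upward (5.52%) and 710 downward, and the former held 7 of the 10, namely all of the 8 except Tnc. DESeq2 called 279 genes (2.44% of those it tested), including Cilp, Postn and Ccn5. The 2 groups came from different clusters. Cluster 9 held all 1110 ligated fibroblasts and 200 of mock 1, but 39 of mock 2 and 52 of mock 3, whose other 331 and 454 were in cluster 14.

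**Figure D2:**
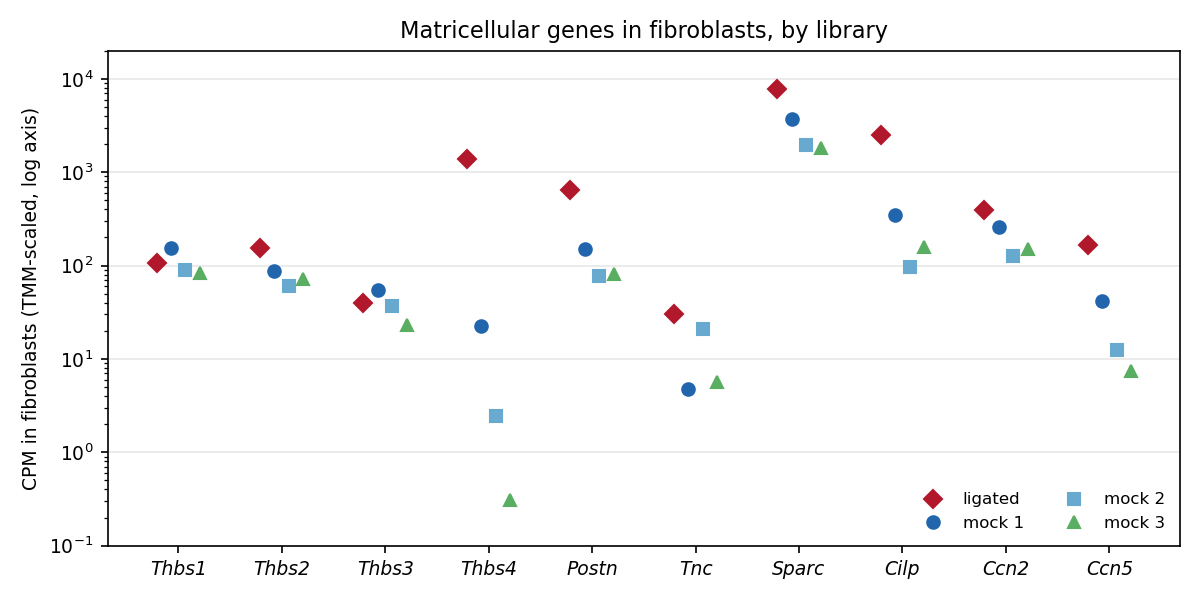
CPM of each gene in fibroblasts on a log axis, 1 point per library, with the ligated library as red diamonds and mock 1, 2 and 3 as circles, squares and triangles. The ligated point lies above every mock point for 8 genes and within the mock points for Thbs1 and Thbs3.

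Among the thrombospondins, Thbs4 differed most. It stood at 1385 CPM in ligated fibroblasts and at 22.5, 2.45 and 0.31 in mock 1, 2 and 3. The ligated library, with 13327 UMIs, lay far above all 3, which had 47, 7 and 1 UMIs. The mocks differed among themselves, since the counting interval of mock 1 (16.4 to 29.7 UPM) lay above those of mock 2 (1.02 to 5.25) and mock 3 (up to 1.78). The log2 fold change was 7.47 ± 1.46 (SE, edgeR adjusted p = 0.22), 164-fold over the mock mean and 5.94 on the log2 scale over mock 1. It was 10.01 without mock 1 and 6.83 without mock 3. The SE of a log2 fold change or difference here is its absolute value over the square root of edgeR's F statistic. The test itself gives no SE. Thbs4 UMIs came from 500 of 1110 ligated fibroblasts, with a median of 16 in those cells, whereas in mock 1 they came from 3 of 202 cells and 40 of the 47 from a single cell. Of all Thbs4 UMIs of the ligated library, 97.6% were in fibroblasts.

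Thbs2, the other trimeric member with Thbs1, was moderately higher. Its CPM was 153 in the ligated library against 86.7, 60.7 and 71.4 in mock 1, 2 and 3, without overlap. The log2 fold change was 1.07 ± 0.26 (edgeR adjusted p = 0.30) and 0.82 over mock 1. Thbs1 stood at 106 in the ligated library against 154, 89.7 and 83.3, between mock 1 and the other mocks. Its log2 difference was -0.03 ± 0.41 over all mocks, -0.53 over mock 1 and 0.31 without mock 1, so its direction depended on which mocks were used. Thbs3 stood at 40.0 against 55.1, 37.2 and 23.1, a log2 difference of 0.07 ± 0.49, with -0.46 over mock 1. Thbs1 and Thbs3 thus lay inside the mock spread, and of the 4 thrombospondins only Thbs4 and Thbs2 lay outside it.

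Cilp gave 24203 UMIs in ligated fibroblasts. It stood at 2515 CPM against 346, 97.1 and 156 in mock 1, 2 and 3, far above each. The log2 fold change was 3.66 ± 0.65 (edgeR adjusted p = 0.19), 12.6-fold over the mock mean, 2.86 over mock 1 and 4.30 without mock 1. DESeq2 gave an adjusted p of 3.55e-05. UMIs of Cilp were found in 948 of the 1110 ligated fibroblasts, at a median of 18 per cell with any.

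Postn stood at 639 CPM in ligated fibroblasts and 151, 76.4 and 80.8 in the mocks, again with no overlap. Its log2 fold change was 2.64 ± 0.41 (edgeR adjusted p = 0.17), or 6.21-fold, and 2.08 over mock 1, with a DESeq2 adjusted p of 8.48e-05. Tnc, the other integrin ligand, was low and uneven. Its CPM was 30.03 in the ligated library and 4.79, 21.0 and 5.61 in the mocks, so the ligated value exceeded mock 2 only narrowly. The log2 fold change of Tnc was 1.50 ± 0.80 (edgeR adjusted p = 0.49), 2.65 over mock 1 and 2.51 without mock 2. The 289 ligated Tnc UMIs came from 88 of 1110 cells, and the 60 of mock 2 from 5 of 370.

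Sparc, a collagen-binding protein made by most stromal cells, stood at 7703 CPM in ligated fibroblasts against 3746, 1949 and 1836. The ligated value was highest, and mock 1 stood apart from the other mocks. The log2 fold change was 1.62 ± 0.43 (edgeR adjusted p = 0.33), and 1.04 over mock 1. The CCN genes were both above the mock range. Ccn2 stood at 390 against 259, 127 and 149, a log2 fold change of 1.13 ± 0.42 (edgeR adjusted p = 0.43) and 0.59 over mock 1. Ccn5, which lacks the C-terminal module of the other CCN proteins, stood at 167 against 42.2, 12.6 and 7.48, a log2 fold change of 3.05 ± 0.83 (edgeR adjusted p = 0.34, DESeq2 adjusted p = 0.0393), 1.99 over mock 1 and 4.08 without mock 1. Ccn5 was concentrated, with 257 of 1110 ligated fibroblasts positive and the 111 cells with the most UMIs holding 85.3% of them.

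Because the clusters differed between groups, the comparison was repeated within cluster 9 alone, an alternative chosen after seeing the data. At a finer clustering (resolution 2.0), the fibroblast cluster led by Cxcl14 and Spp1 held 979 ligated and 43, 19 and 17 mock cells. The cluster led by Dcn and Gsn held 5 against 124, 336 and 457, and that led by Pi16 and Dpt 126 against 35, 15 and 32. The libraries may thus differ in kinds of fibroblast within cluster 9 too, and the part of this was not tested. Of the 10 genes, 7 lay above the mock range and 1, Thbs3, below on the TMM scale (unscaled, Thbs1 was also below, at 99.8 UPM against 154, 131 and 107.5), beside 22.5% and 17.8% of the 10683 genes tested there. Thbs4 was the only one of the 10 to pass, with a log2 fold change of 6.13 (edgeR adjusted p = 0.00935), among 7 genes that passed in all (0.0655%). Its level was 1298 UPM in the ligated library against 22.5, 32.8 and 0 in mock 1, 2 and 3. Postn had a log2 fold change of 2.25 (edgeR adjusted p = 0.0712), with 599 UPM against 151, 122 and 131, and Cilp 3.03 (edgeR adjusted p = 0.10), with 2358 against 346, 131 and 453. Sparc was at 7223 against 3732, 4050 and 3972, so that its mock libraries lay closer together than in all fibroblasts. Thbs2 and Ccn2 also stayed above. For Ccn5 the gap narrowed: 157 UPM in the ligated library against 42.2, 141 and 103, where the interval of mock 2, 94.9 to 201, includes the ligated value. Tnc was no longer highest in the ligated library, at 28.2 against 4.79, 281 and 84.1, and its log2 difference turned to -1.84. Cluster 14 held 0 UMIs of Tnc in mock 2 and in mock 3.

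**Figure D3:**
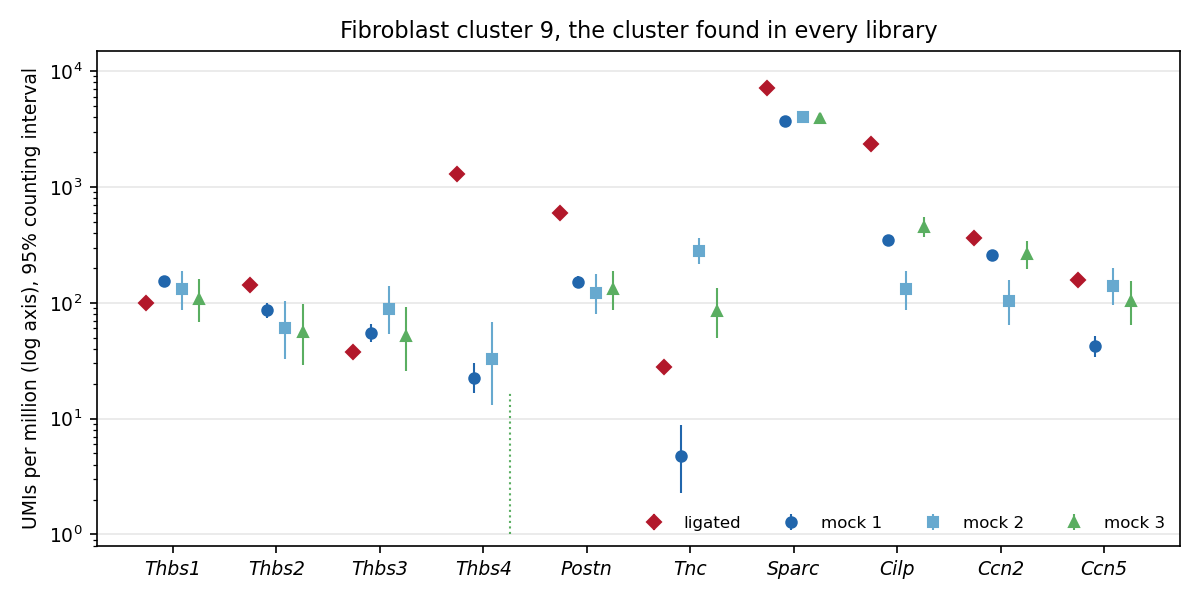
UPM in fibroblast cluster 9 on a log axis, by library, with exact Poisson 95% intervals, and a dotted line up to the upper limit where a library had 0 UMIs (Thbs4 in mock 3). Thbs4, Cilp, Postn and Sparc keep a wide gap between the ligated library and every mock, and Ccn5 and Tnc do not.

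The share of fibroblasts with a UMI was compared after every cell was thinned to 1000 UMIs, which removes differences in depth (median UMIs per fibroblast were 9027 in the ligated library and 10614, 7505 and 6375.5 in the mocks). Thinned, Cilp was detected in 67.5% of ligated fibroblasts against 11.6, 5.48 and 8.08%, and unthinned in 85.4% against 26.7, 16.8 and 19.6%. Thbs4 was detected in 31.9% against 0.505, 0.274 and 0%, and unthinned in 45.0% against 1.49, 0.270 and 0.198%. Ligated T cells, which should lack both, gave 1.95% for Cilp and 0.651% for Thbs4 thinned, at a median of 4080 UMIs. T cells of the mocks had 0 UMIs of Thbs4 in each library. Thinning left out 36 ligated and 4, 5 and 11 mock fibroblasts. Of 343 thinned ligated fibroblasts with Thbs4, 320 (93.3%) also had Cilp, and of 725 with Cilp 44.1% had Thbs4.

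Sums of cell type markers also differed between the ligated and mock libraries, in both directions. In fibroblasts the 9 fibroblast markers, all detected in every library, summed to 38930 UPM in the ligated library and 53590, 58530 and 57610 in the mocks. The 10 NK or ILC1 markers summed to 149 against 26.1, 17.8 and 16.6, with none at 0 in the ligated library and 1, 4 and 3 at 0 in the mocks, Klrb1b among them in each. The 12 macrophage markers summed to 683 against 418, 368 and 369, with none and 3, 4 and 3 at 0, Fcgr1 among them in each mock. The 10 endothelial markers summed to 448 against 277, 210 and 226, with Cldn5 at 0 in mock 2. The 8 platelet markers, relevant because platelets carry thrombospondin-1, summed to 42.8 against 34.65, 41.5 and 39.3, with 5 or 6 of the 8 at 0. The 11 mural markers summed to 704 against 428, 366 and 450. The 10 glia markers were lower in the ligated library, at 365 against 416, 653 and 652.5, with none at 0 and 4, 2 and 4 at 0 in the mocks. The 12 epithelial markers, at 150.1 against 34.2, 241 and 147.9, lay inside the mock range. The 9 ILC2 markers summed to 194 against 200.3, 1235 and 1374, with 3 at 0 in the ligated library and 4, 7 and 6 in the mocks. In mock 2 only Il5 and Rora of the 9 were detected. The ILC2 sum was low where Cell Ranger 6.0.1 was used and high where 7.0.0 was. It split the same way in mural cells (78.1 against 95.2, 446 and 398) and endothelial cells (27.5 against 30.9, 189 and 176). In macrophages the split was less clear, at 51.0 against 85.8, 143.3 and 88.8. The part of these marker sums in the fibroblast differences was not tested. The 19 genes known to respond to tissue dissociation summed to 2086 against 3148, 1958 and 1651, inside the mock range.

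Mural cells showed a different picture. Of the 9 genes tested there, Thbs4 and Cilp lay above the mock range and Postn below, beside 28.2% and 25.9% of 10915 genes. Postn stood at 180 CPM in the ligated library and at 268, 202 and 208 in the mocks, a log2 difference of -0.33 ± 0.27 (edgeR adjusted p = 0.78). Sparc stood at 2340 against 3144, 2316 and 2218, within the mocks. Ccn2 stood at 83.7 against 165, 43.1 and 49.1, Thbs1 at 15.1 against 43.8, 14.6 and 13.8, and Thbs2 at 15.1 against 14.8, 20.2 and 10.1, so none of the 3 left the mock range. Thbs3, at 4.54 against 7.67, 2.09 and 5.04, and Ccn5, at 2.52 against 0.548, 0.695 and 7.55, rest on few UMIs and also stayed inside it. Tnc, with 5 UMIs in ligated mural cells, was too low to be tested. No gene passed in mural cells by edgeR (0%). At an unadjusted p of 0.05, 363 passed upward (3.33%, Thbs4 and Cilp among them) and 349 downward, and DESeq2 called 9. In mural cells 15 of the 19 dissociation genes lay above the mock range, and their sum was 3258 UPM against 2399, 1222 and 1446. Summed mural markers, all 11 detected in each library, were lower at 23640 UPM against 36720, 28860 and 27760. The 10 NK or ILC1 markers summed to 236 against 19.8, 19.5 and 54.5, with none and 4, 3 and 3 at 0, and the 12 macrophage markers to 231 against 75.4, 50.5 and 130.2, with 1 and 7, 6 and 2 at 0. The fibroblast markers, at 1414 against 1446, 1955 and 1803, were not higher. The part of these in the mural values was not tested.

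In macrophages 2 of the 10 genes were tested. Sparc stood at 43.4 CPM against 32.0, 54.6 and 49.1, inside the mock range, and Cilp at 13.3 from 53 UMIs against 0 in each mock. Mock 1 had only 52 macrophages, and against its floor of 3 counts, 10.7 UPM, Cilp was at least 1.29-fold higher. The 9 fibroblast markers summed to 397 UPM in these cells against 247, 242 and 216, with none and 2, 2 and 3 at 0. Of the 19 dissociation genes 10 lay above the mock range and 6 passed upward at an unadjusted p of 0.05. Their part in the Cilp value was not tested. No gene passed by edgeR, 280 passed upward and 751 downward at an unadjusted p of 0.05, and DESeq2 called 19.

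Endothelial cells came mostly from cluster 1 in the ligated library, cluster 3 in mock 1 and cluster 0 in mock 2 and mock 3. Sparc stood at 2735 CPM in the ligated library and 3002, 1370 and 1305 in the mocks, between mock 1 and the other mocks, as did Thbs1 at 15.0 against 19.6, 8.46 and 8.40 and Thbs2 at 6.52 against 6.68, 4.50 and 4.62. Thbs3 was near 0, at 0.621 against 0.204, 0.506 and 0.827. Ccn2 stood at 9.79 against 20.4, 15.3 and 13.9, below every mock. Its log2 difference was -0.75 ± 0.31 (edgeR adjusted p = 0.63) and -1.06 over mock 1. It was the only member below the range, beside 27.3% of 14244 genes, and 5 members lay above, beside 28.4%. By edgeR no gene passed (0%). At an unadjusted p of 0.05, 671 passed upward (4.71%), those 5 members among them, and 406 downward, and DESeq2 called 164 (1.25%), with Thbs4, Postn and Cilp among them.

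The 5 members above the range in endothelial cells were those with almost no mock UMIs. Cilp stood at 15.8 CPM against 0.409, 0.184 and 0.0871, Thbs4 at 5.90 against 0.0682, 0 and 0, and Postn at 5.59 against 0.409, 0.414 and 0.305. Tnc stood at 1.19 against 0.0682, 0.0460 and 0.0435. Its 23 ligated UMIs came from 10 of 4071 cells, with 14 in a single cell. Ccn5 had 37 UMIs, or 1.95 UPM, and 0 in all mocks, at least 9.95-fold higher against a floor of 3 counts in the mock library with the fewest endothelial UMIs. Markers of other cells were also higher in ligated endothelial cells. The 9 fibroblast markers summed to 229.7 UPM against 46.6, 35.3 and 26.6, all detected in each library. The 12 macrophage markers summed to 349 against 92.8, 75.6 and 67.8, with Csf1r and Fcgr1 at 0 in mock 1, and the 10 NK or ILC1 markers to 210.2 against 49.2, 25.9 and 33.65, none at 0. Low levels of Cilp, Thbs4, Postn and Ccn5 were also read in ligated immune cells. Ligated T cells had 18.6 UPM of Cilp, 5.54 of Thbs4, 5.34 of Postn and 1.38 of Ccn5, and NK or ILC1 cells had 14.9, 4.95, 4.07 and 1.04. Macrophages had 13.8, 3.90, 6.77 and 1.04. Tnc, with few UMIs, stood at 0.220 UPM (4 UMIs) in ligated NK or ILC1 cells against 0, 0.550 and 0.106 in the mocks. In T cells it stood at 0.594 (3 UMIs) against 0, 0 and 0.552, and macrophages had 3 UMIs of it against 0 in each mock. Against its ligated fibroblast level, Tnc was at 0.781% in NK or ILC1 cells, 2.11% in T cells and 2.77% in macrophages. Expressed against the ligated fibroblast level, Thbs4 lay between 0.301 and 0.794% and Cilp between 0.4999 and 0.789% in mural, endothelial, macrophage, NK or ILC1 and T cells alike. Sparc, in contrast, lay at 38.6% of the fibroblast level in endothelial and 31.6% in mural cells but at 0.623 to 0.855% in macrophages and lymphocytes. Whether RNA freed from fibroblasts gave these low levels was not tested.

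**Figure D4:**
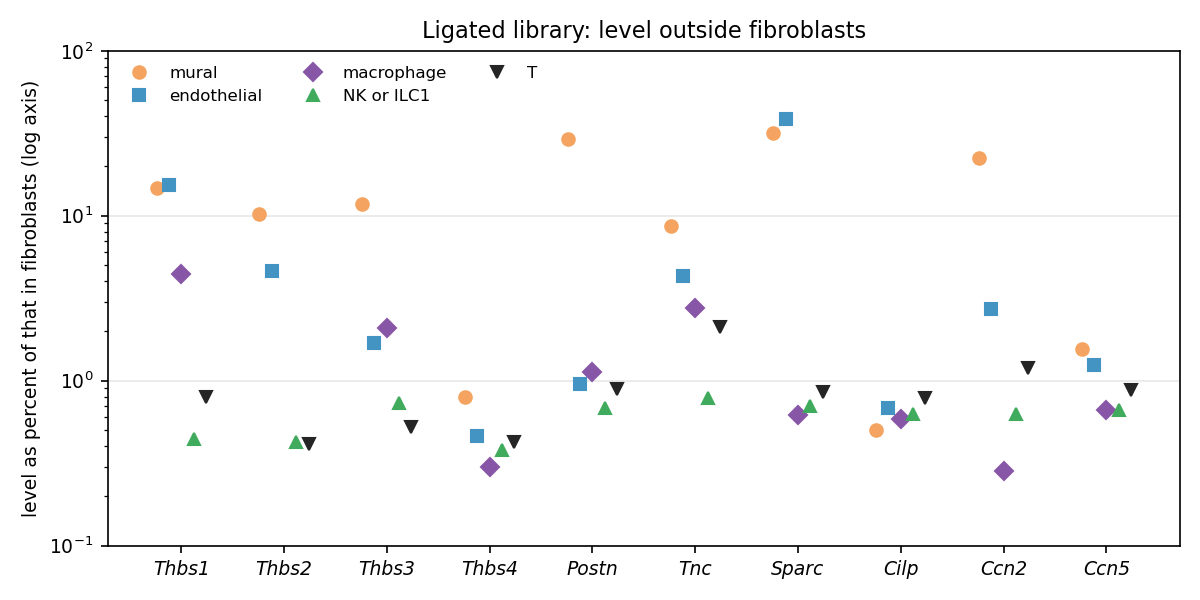
Level of each gene in 5 other cell classes of the ligated library, as a percent of its level in fibroblasts of that library, on a log axis. Thbs2 had 0 UMIs in macrophages and has no point there. Thbs4 and Cilp lie under 1% in every class, while Sparc, Postn and Ccn2 separate mural cells from lymphocytes.

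The difference between ligated and mock libraries was tested against cell class directly, with edgeR and a term for each library. With 1 ligated library, the SE and p-values here reflect only how steady the gap between 2 classes was among the mocks. All fibroblasts were used, those of the ligated library from cluster 9 and 331 of mock 2 and 454 of mock 3 from cluster 14. The comparison was not repeated within cluster 9, and the part of this difference in clusters was not tested. Against mural cells, 233 of 12202 genes passed (1.91%), including Postn and Sparc. The fibroblast change of Postn exceeded the mural one by 3.06 ± 0.26 on the log2 scale (edgeR adjusted p = 0.000178), and it passed without each mock in turn. That of Sparc exceeded it by 1.86 ± 0.28 (edgeR adjusted p = 0.00504), and by 1.76 without mock 3, where the adjusted p was 0.0595. Against endothelial cells, 677 of 15058 genes passed (4.5%), including Ccn2, Sparc, Cilp and Ccn5. The Ccn2 change was higher in fibroblasts by 2.02 ± 0.26 (edgeR adjusted p = 0.00249) and passed without each mock. The Sparc change was higher by 1.15 ± 0.26 (edgeR adjusted p = 0.0385), with adjusted p of 0.526 without mock 2 and 0.380 without mock 3. For Cilp the log2 change in fibroblasts was smaller than in endothelial cells, by -2.34 ± 0.37 (edgeR adjusted p = 0.00732, and 0.0604 without mock 3). Its endothelial mock level was close to 0, so this ratio sits beside the low levels above. For Ccn5 the fitted difference of -4.24 (edgeR adjusted p = 0.0293) is against endothelial mocks at 0 and gives no size. It missed the threshold without mock 2 and without mock 3.

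**Figure D5:**
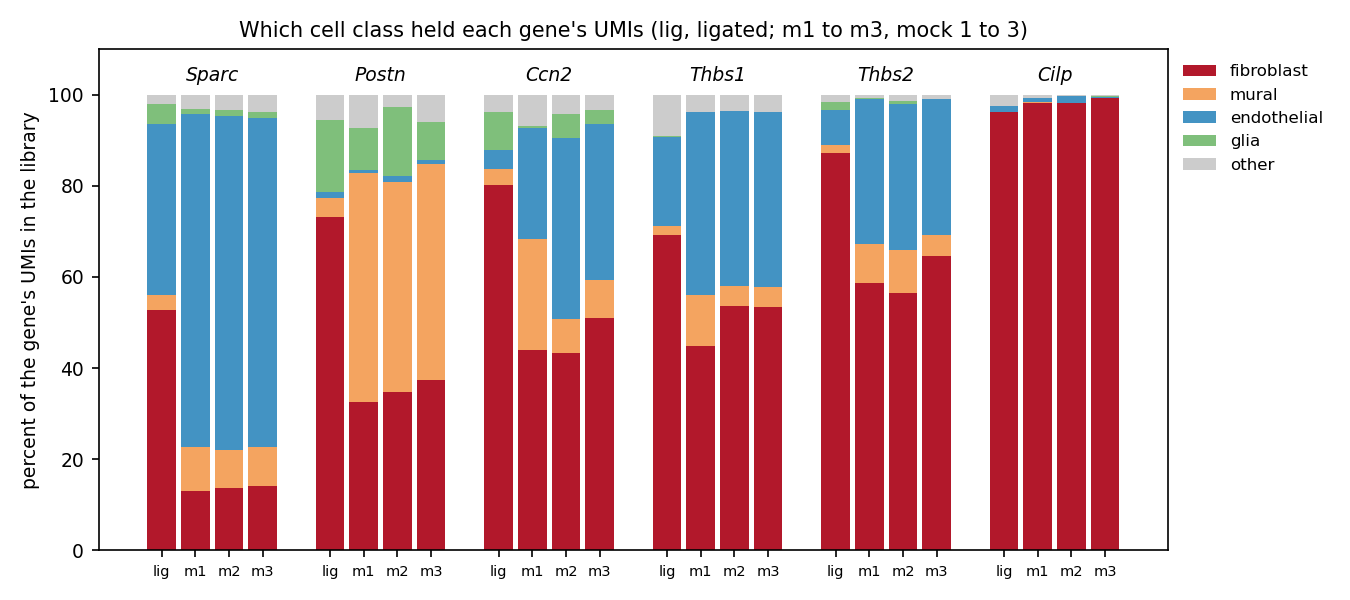
Percent of each gene's UMIs in a library that came from fibroblasts, mural cells, endothelial cells, glia and all other cells, for 6 genes and 4 libraries. Sparc UMIs shift from endothelial cells in the mocks to fibroblasts in the ligated library, and Cilp UMIs were nearly all in fibroblasts in every library.

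Where a gene's transcripts came from within each library also changed. Fibroblasts gave 52.7% of Sparc UMIs in the ligated library and 13.0, 13.7 and 14.2% in the mocks, in which endothelial cells gave 73.3, 73.5 and 72.2%. For Postn, mural cells gave 50.4, 46.1 and 47.5% in the mocks and 4.25% in the ligated library, where fibroblasts gave 73.1%. For Ccn2, fibroblasts gave 80.2% against 44.0, 43.4 and 51.1%. Cilp was a fibroblast transcript throughout, at 96.2% against 98.1, 98.2 and 99.2%. These shares follow the number of cells of each class as well as the level per cell, and the sort and the dissociation can set those numbers.

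Glia, not tested because mock 1 had 22 cells, had a Tnc level of 95.4 UPM in the ligated library (103 UMIs, interval 77.9 to 116) against 20.0, 9.49 and 31.1, from 2, 1 and 4 UMIs. The ligated UMIs came from 28 of 301 cells. Postn in glia stood at 1233 against 901, 902 and 451, above each mock, while Sparc at 5681 against 6528, 4481 and 4156 and Ccn2 at 361 against 60.1, 408 and 218 lay inside the mock range. In cells named epithelial, 332 in the ligated library with a median of 811.5 UMIs, Postn stood at 124 against 5.25, 0 and 0, from 59 UMIs in 5.42% of cells, and Sparc at 229 against 73.4, 20.3 and 22.4.

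Within the endothelium the members differed by cluster. In mock 2 and mock 3, the cluster led by Vwf and Selp, markers of veins, had Ccn2 at 26.5 and 33.6 UPM and Thbs1 at 15.0 and 19.5, against 15.0 and 12.2, and 7.34 and 7.39, in the largest capillary cluster, led by Car4 and Rgcc. The cluster led by Stmn2 and Sema3g, of arterial character, had Ccn2 at 7.50 and 5.63 and Thbs1 at 1.36 and 0.512. Sparc ran the other way in mock 2 and mock 3, highest in the arterial cluster at 1566 and 1505. In the ligated library the arterial cluster (led by Edn1) had little Thbs1, 1.27 against 17.5 in the cluster led by Scarb1 and Aplnr, while the same arterial cluster in mock 1 had 12.3. Sparc in the ligated library was lower in the arterial cluster, at 2079, than in the cluster led by Scarb1, at 2893. Clusters were built on other genes of these same cells, so these levels are a description.

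Further genes of the pathways were counted in fibroblasts, with the background of 29.5% above and 28.6% below and of 5.52% up at an unadjusted p of 0.05. Of 30 other matricellular genes, 21 were tested, 11 lay above the mock range and 6 below, 5 passed the unadjusted threshold upward and 2 downward, and their median log2 fold change was 0.56, or 0.14 over mock 1. Osteopontin (Spp1) stood at 3832 CPM against 132, 48.4 and 83.0, and Ccn4, another CCN gene, at 124 against 26.8, 12.3 and 11.5. Tenascin-X (Tnxb), a matrix protein of loose connective tissue, was lower at 97.2 against 373, 248 and 236, and so was the proteoglycan gene Spock2, at 30.1 against 127, 69.8 and 73.6. Of 27 receptors, 22 were tested, 6 lay above and 8 below, with a median of 0.06, near that of all genes. The integrin chain gene Itgb5, a periostin receptor subunit, stood at 500 against 238, 250 and 249, Itga1 at 228 against 141, 103 and 111, and Cd47, a thrombospondin-1 receptor, at 387 against 608, 582 and 609. None of these passed after adjustment, with edgeR adjusted p of 0.121 for Spp1, 0.181 for Ccn4, 0.288 for Tnxb, 0.352 for Spock2, 0.184 for Itgb5, 0.324 for Itga1 and 0.350 for Cd47.

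Of 21 genes known as TGF-beta targets, all tested, 14 lay above and 3 below, 8 passed the unadjusted threshold upward and 2 downward, and the median was 0.96, or 0.63 over mock 1. Ltbp2, which tethers to elastic fibres, stood at 198 against 7.67, 0 and 0.312 CPM, Lox, a collagen crosslinker, at 393 against 154, 42.8 and 36.5, and the smooth muscle genes Tagln and Acta2 at 48.9 against 6.23, 1.05 and 2.49 and 31.6 against 7.19, 1.75 and 3.43. Of 22 YAP targets, 18 were tested, 6 lay above and 3 below, 1 passed the unadjusted threshold in each direction (Gadd45b up, Rbms3 down), and the median was 0.02. These lists were assembled with earlier results of the same libraries known, and their counts describe and do not test them.

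The genes whose levels ran most like each member's were found by Pearson's r of log2(CPM + 10) over 28 points, 7 classes in each of 4 libraries, which share library and depth. Thbs4 was nearest to Ltbp2 (r = 0.95), Cilp to Mfap4 (0.98), Ccn5 to Sphk1 (0.98) and Postn to Dkk3 (0.98). Sparc was nearest to Amotl1 (0.98) and Col4a1 (0.98), Thbs2 to Fzd1 (0.98), Thbs3 to Chrd (0.99), Ccn2 to Cpt1c (0.98), Thbs1 to Fgfr1 (0.96) and Tnc to Akr1c18 (0.91). Among the members themselves, Thbs1 was nearest to Ccn2 at 0.95 and Cilp to Ccn5 at 0.93, while Thbs4 and Thbs1 reached 0.48.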

How the data were processed

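The deposited values are counts, raw UMI counts per gene and cell barcode from the authors' cell calling. Reads were counted by Cell Ranger on mm10, with version 7.0.1 per the submitters' processing notes but 6.0.1 and 7.0.0 per the file headers. The sources used here do not say whether introns were counted. Cells with at least 500 UMIs, 300 genes and at most 15% mitochondrial UMIs were kept, and the highest-scoring simulated-doublet neighbours (0.8% per 1000 barcodes) were removed. Clusters came from 2000 variable genes without the 10 members, 30 principal components, 15 neighbours and Leiden at resolution 1.0 (leidenalg 0.10.2, scikit-learn 1.9.0, Python 3.11.15), giving 35 clusters of which 7 stayed unnamed. A name needed at least 3 class markers in 25% of cells and a mean log2 ratio of 0.5. The scoring was chosen once clusters had been looked at.

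Counts were summed per library and class and tested with edgeR 4.0.16 (R 4.3.3), with TMM and filterByExpr, and p-values were adjusted by Benjamini-Hochberg over all genes of the class (threshold 0.05). Alternatives were DESeq2 1.42.0, its size factors, no low-count filter, each mock left out, a Cell Ranger version term, resolution 2.0, doublets kept, members among the clustering genes and, chosen after seeing the data, fibroblast cluster 9 alone. The script was tested on simulated data. Fibroblasts, mural cells, endothelial cells and macrophages were tested. All members were named, and so were some of the up to 5 genes per list with an unadjusted p under 0.05, the ligated library outside the mock range and the largest change, and of the 3 genes most alike by correlation. The members and lists were chosen with earlier results of these data known. Promoters are RefSeq's (GRCm38.p6), and 7 of 10 members matched.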

Additional observations from a re-analysis of the deposited data

Results flagged for a closer look

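In the class by surgery comparison, with 1 ligated library, the spread came from the mocks. When each mock was left out in turn, Postn against mural cells and Ccn2 against endothelial cells kept passing. Both Sparc results, Cilp and Ccn5 missed the threshold in at least 1 such setting, and endothelial mocks were close to 0 for Cilp. The comparison singled out 6 results because the ligated to mock difference itself differed between cell classes by edgeR's quasi-likelihood test. Against mural cells these were Postn, 3.06 higher in fibroblasts on the log2 scale (adjusted p = 0.000178), and Sparc, 1.86 higher (adjusted p = 0.00504). Against endothelial cells they were Ccn2, 2.02 higher (adjusted p = 0.00249), Sparc, 1.15 higher (adjusted p = 0.0385), Cilp, -2.34 (adjusted p = 0.00732), and Ccn5, -4.24 (adjusted p = 0.0293), the last against endothelial mocks at 0.

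Cells of the 7 unnamed clusters entered no comparison, and 3 genes stood there with a counting interval above that of every mock library. Cilp was at 106 UMIs per 1000000 in the 713 ligated cells, from 168 UMIs, against 1.24, 0 and 0 in mock 1, 2 and 3. Thbs4 was at 27.2, from 43 UMIs, against 0 in each mock. Postn was at 171 against 77.0, 5.27 and 24.3. The unnamed cells of the groups sat in different clusters. Cluster 25, whose best-scoring markers were those of fibroblasts, had 204 ligated cells and 0 mock cells, while cluster 4, with endothelial markers scoring best, had 165 ligated cells and 143, 638 and 758 mock cells.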

How the results depend on the processing

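No paired analysis was possible because the ligated group has 1 library and the labels name no pairs. With 1 ligated library and 2 residual degrees of freedom, the number of genes passing the adjusted threshold depended on the setting more than the members' values did. Genes called in fibroblasts, 0 as reported, numbered 38 with no low count filter, 2925 with a Cell Ranger version term, 279 by DESeq2, 7 in cluster 9 alone (chosen after seeing the data) and 0 to 6471 with a mock left out. In mural cells they numbered 2, 1395, 9 and 0 to 2488 under the first 3 settings and the leave-outs, and in macrophages 510, 141, 19 and 91 to 2340. In endothelial cells the version term gave 4837, DESeq2 164 and the leave-outs 0 to 8645. The highest of each range came without mock 1, which leaves mock 2 and mock 3, the closest pair. Against mural cells 457 genes passed with no filter and 53 to 1243 with a mock left out, and against endothelial cells 221 to 3919.

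Members above the mock range numbered 5 in macrophages with no filter, and with a mock left out 2 to 5 in mural and 5 to 8 in endothelial cells. Members below numbered 1 in fibroblast cluster 9, and with a mock left out 1 to 2 in mural cells and 0 to 1 in macrophages. In fibroblasts 10 lay above without mock 1 and 7 in cluster 9.

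Some log2 differences changed sign. With a mock left out, fibroblast Thbs1 ran from -0.19 to 0.31, fibroblast Thbs3 from -0.20 to 0.43, mural Thbs1 from -0.97 to 0.092, mural Thbs2 from -0.21 to 0.27, mural Sparc from -0.24 to 0.048, mural Ccn2 from -0.37 to 0.86, endothelial Thbs3 from -0.10 to 0.77 and macrophage Sparc from -0.25 to 0.064. The fibroblast minus mural difference ran from -0.034 to 0.58 for Thbs3 and from -1.43 to 5.20 for Thbs4, and the fibroblast minus endothelial one from -0.79 to 0.66 and from -0.23 to 0.81. With DESeq2's size factors the latter were -0.0045 and -0.045. The version term gave -0.46 for fibroblast Thbs3, 2.06 for mural Ccn5, -0.39, -0.034 and -0.13 for endothelial Thbs1, Thbs2 and Sparc, and 0.44 for macrophage Sparc, which was 0.23 with doublets kept. Cluster 9 alone gave -0.64 for Thbs3 and -1.84 for Tnc. The cause of these changes was not tested. The other 251 member fold changes recomputed kept their direction and side of the threshold, and 50 kept their direction and passed it.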
